A study of Mus musculus with 11 samples.

Results

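Sox genes other than Sox2 and Sox9 were followed in mouse retinas of embryonic stage E13.5 across 4 genotypes. The set was Sox1, Sox3, Sox4, Sox5, Sox6, Sox8, Sox11, Sox12, Sox13 and Sox21, and genes were kept where the table of raw read counts had a row of that name. This gave 9 of 10 genes, among 13498 genes in all. Sox21 was not analysed here. All 9 passed the filter on low counts that left 13292 genes for testing.

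The study sequenced total RNA from dissected retinas of NMRI embryos, with 11 libraries in all. All embryos carried the floxed Six3 allele in both copies (Six3F/F), and all came from dams given tamoxifen on E10.5 and E11.5. WT retinas (3 libraries) were Six3F/F; Six6+/+ without Cre. Six3KO retinas (3 libraries) were Six3F/F; Six6+/+ with CAGGCre-ERTM, a broadly active Cre that tamoxifen switches on. The submitters removed 1 further Six6KO sample for high duplication, which left 2 libraries. Six6KO retinas were Six3F/F; Six6–/– without Cre. DKO retinas (3 libraries) were Six3F/F; Six6–/– with CAGGCre-ERTM. The effect of losing Six3 and an effect of Cre with tamoxifen cannot be told apart against WT or Six6KO, and CAGGCre-ERTM is not restricted to the retina. Each sample was a pair of retinas and is described as a biological replicate, and the columns of the table name a library but not a replicate number.

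Sox proteins bind DNA through an HMG box, a domain that fits into the minor groove and bends the helix, and they usually act with partner proteins. Subgroups share sequence and habits. SoxB1 proteins (Sox1, Sox2, Sox3) keep neural cells in the progenitor state. SoxC proteins (Sox4, Sox11, Sox12) are activators in differentiating neurons, and in the mouse retina Sox4 and Sox11 are needed for ganglion cells to form. SoxD proteins (Sox5, Sox6, Sox13) have no activation domain of their own and work as modifiers, often beside SoxE proteins (Sox8, Sox9, Sox10), which act in neural crest, glia and cartilage and, in the retina, in progenitors and Müller glia.

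The coding stretch that opens the conserved part of the HMG box shows how these subgroups relate, which bears on whether reads of one member could be counted for another. The first 60 coding bases of its conserved part are given 5′ to 3′ for the 9 members and for Sox2, from GENCODE vM21 transcripts (GRCm38). Capitals mark bases that differ from Sox2.
Sox2: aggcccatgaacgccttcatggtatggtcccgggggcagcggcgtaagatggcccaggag
Sox1: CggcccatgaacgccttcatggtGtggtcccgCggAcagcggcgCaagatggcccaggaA
Sox3: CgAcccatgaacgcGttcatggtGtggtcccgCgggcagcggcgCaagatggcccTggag
Sox4: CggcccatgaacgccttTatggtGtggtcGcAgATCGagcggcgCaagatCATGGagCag
Sox11: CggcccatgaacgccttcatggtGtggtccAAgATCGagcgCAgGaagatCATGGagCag
Sox12: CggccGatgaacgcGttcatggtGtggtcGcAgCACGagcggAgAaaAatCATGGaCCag
Sox5: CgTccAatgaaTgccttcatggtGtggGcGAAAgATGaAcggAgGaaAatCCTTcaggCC
Sox6: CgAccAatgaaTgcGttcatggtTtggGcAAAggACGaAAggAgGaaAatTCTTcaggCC
Sox13: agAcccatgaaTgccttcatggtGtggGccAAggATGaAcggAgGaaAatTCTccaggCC
Sox8: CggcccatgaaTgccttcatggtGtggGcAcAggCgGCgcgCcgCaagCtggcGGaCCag

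Sox1 and Sox3 differed from Sox2 at 6 and 7 of these 60 bases, Sox8 at 16, the SoxC members at 16 to 20 and the SoxD members at 18 to 24. Over 210 bases of the box, the 9 pairs of these genes and Sox2 within a subgroup were 81.9% to 91.0% identical, and the 36 pairs across subgroups 52.9% to 70.5%. The longest run of identical bases shared by annotated transcripts of any pair of these genes was 48 bases, between Sox4 and Sox11. Sox1 and Sox3 shared a run of 45 bases. The sources used here do not give the read length.

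Depth ran from 7807744 to 16403191 reads in genes per library. Levels are CPM (read counts relative to library size, after TMM scaling for composition), and differences are log2 fold changes ± standard error from a fit in edgeR over all libraries. A gene was called at a Benjamini-Hochberg adjusted p under 0.05 over all 13292 genes. The labelled tissue held its own markers: all 9 retinal progenitor genes were detected in every group, at a summed 1578 to 3791 CPM per library. These include the targeted genes Six3 and Six6, so the sums are not independent of genotype. Six3 lay at 164 to 299 CPM in WT and 30.3 to 98.2 CPM in the 6 Six3KO and DKO libraries, and Six6 at 225 to 340 CPM in WT and 52.8 to 131 CPM in the 5 Six6KO and DKO libraries. Whether the remaining reads came from undeleted exons was not tested. Bordering tissue varied between libraries of 1 group. The 23 lens genes summed to 27224 and 21745 CPM in Six3KO libraries rh012 and rh026 and 11780 CPM in Six6KO library rh020, against 34.8 to 1598 CPM in the other 8. The 20 periocular mesenchyme genes summed to 282 to 387 CPM in DKO and 581 to 5451 CPM elsewhere.

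Per length of exon, the SoxC genes stood highest among the members in the WT retina. Sox11 lay at 165 ± 32.6 CPM per kilobase (mean ± SD, n = 3), above Sox2 at 86.1 ± 24.0. Sox4 followed at 48.0 ± 2.98 and Sox12 at 28.6 ± 2.99, and neighbours in this order did not overlap down to Sox9 at 15.7 ± 5.28. Sox13 (6.13 ± 2.31), Sox3 (5.55 ± 0.472) and Sox8 (4.01 ± 1.00) came next, each overlapping its neighbour in that order. Sox1 (1.33 ± 0.656), Sox6 (1.23 ± 0.735) and Sox5 (0.545 ± 0.151) stood lowest and also overlapped in this order. On the same scale, Sox4, Sox11 and Sox12 made up 86.4% to 93.7% of the summed level of the 9 members in each library.

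**Figure D1:**
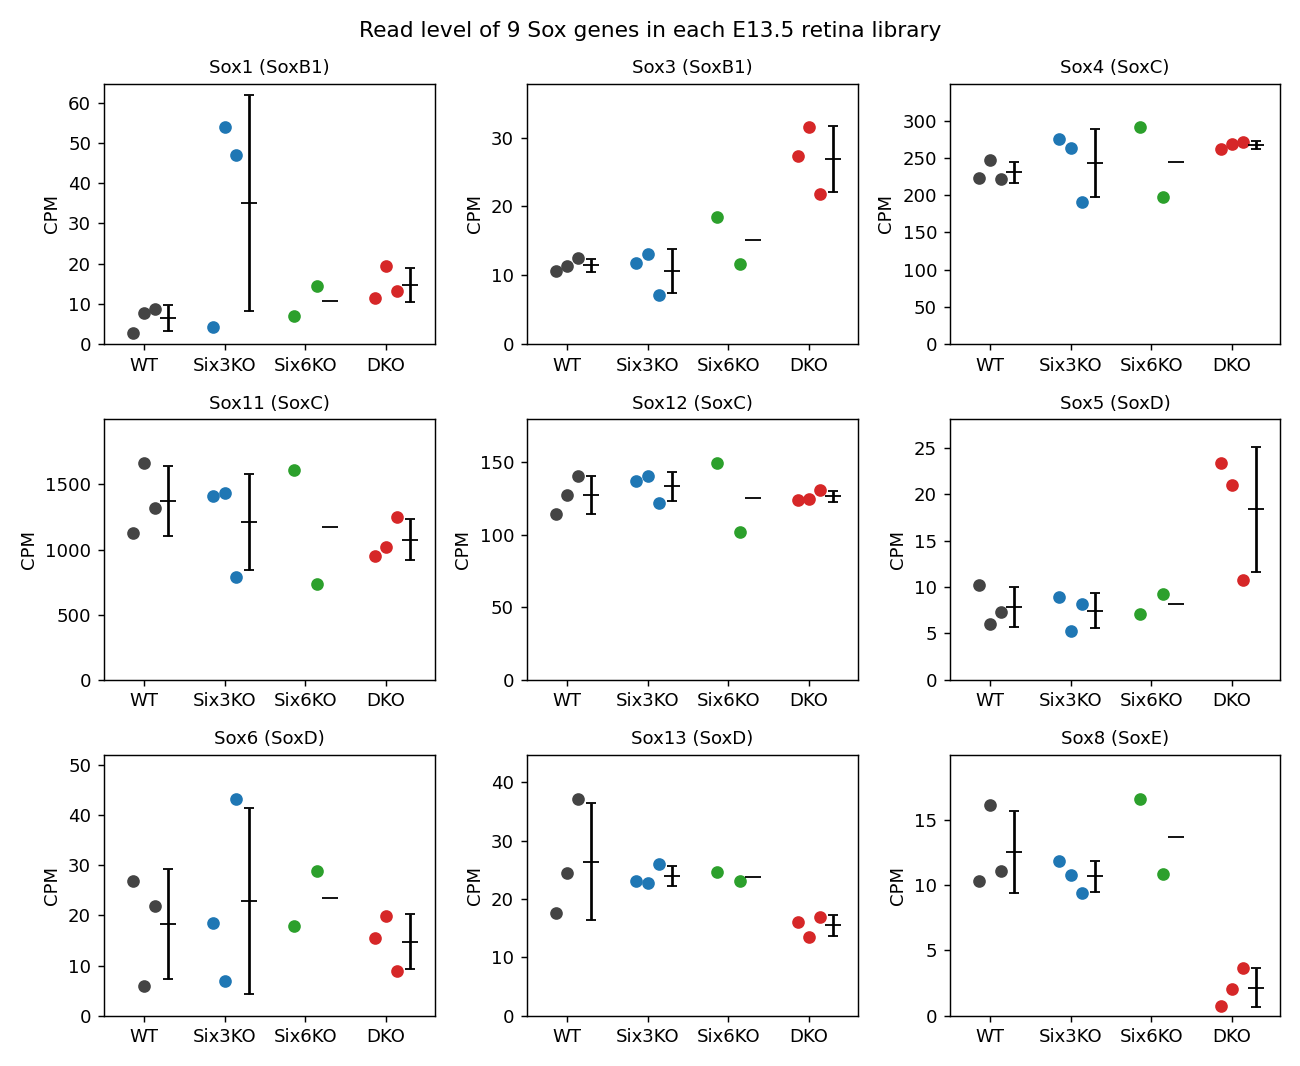
CPM (vertical axes, from 0) of each of the 9 Sox genes in each library (points) of the 4 groups, and black marks for each group's mean with its SD (mean alone for the 2 Six6KO libraries). The DKO libraries lie below all others for Sox8 (0.738 to 3.65 CPM) and Sox13, above all others for Sox3 (21.9 to 31.6 CPM) and Sox5, and among the others for Sox11 and Sox12.

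Sox8 fell in the double mutant, while Sox3 and Sox5 stood 2.35 and 2.33 fold above WT by estimate without passing the threshold, Sox13 stood below WT, and the SoxC genes lay within or close to the WT range. In DKO against WT, 1 of 9 members was called, against 1.29% of all genes (172 of 13292), and 4 of 9 had an unadjusted p under 0.05, against 1728 of all 13292 genes. The median log2 difference of the members was -0.01, against -0.0036 over all genes. By DESeq2, the tool named in the study's design text, 2 members were higher (Sox3 and Sox5) and 1 lower (Sox8), where DESeq2 called 773 genes in all against 172 by edgeR. The DKO and WT libraries did not overlap for 6 members (Sox1, Sox3, Sox4, Sox5, Sox8 and Sox13), which was so for 17.5% of all genes. The DKO libraries lay all above or all below the 8 other libraries for 4 members, Sox3, Sox5, Sox8 and Sox13, which was so for 7.77% of all genes. In bulk tissue, fewer cells of a type and less RNA per cell cannot be told apart.

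Sox8, a SoxE factor (chromosome 17, 25565892 to 25570686, minus strand, GRCm38), was the member with the largest difference from WT in DKO. It stood at 10.3, 16.1 and 11.1 CPM in the WT libraries and at 11.8, 10.8 and 9.38 CPM in Six3KO. In Six6KO it stood at 16.6 and 10.8 CPM. In DKO it stood at 0.738, 2.07 and 3.65 CPM, from 9, 25 and 46 reads. The single mutants lay in or near the WT range, and every DKO library lay below the lowest of the other 8 (9.38 CPM). The fall in DKO was 5.77 fold (log2 fold change -2.53 ± 0.46, adjusted p = 0.0381), with a 95% interval of -3.56 to -1.49.

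The direction of the Sox8 difference held in all 19 alternative fits, but its call did not. The estimate stayed between -3.14 and -2.12 in 19 alternatives, but the adjusted p was above 0.05 in 11 of them. It was 0.0695 with DKO and WT alone and 0.0580 with the lens score as a covariate. The fit without the 3 lens-rich libraries (-2.52) is also among the 11, with its spread from the same DKO and WT libraries as the first. The others were 8 of the 11 fits without 1 library. The adjusted p was 0.0846, 0.0800 and 0.0788 without WT libraries rh016, rh023 and rh024, and 0.0666 and 0.0524 without Six3KO libraries rh006 and rh012. It was 0.0503 without Six6KO library rh007, and 0.0782 and 0.185 without DKO libraries rh010 and rh011. DESeq2 gave -2.53 ± 0.46 (adjusted p = 6.65e-06). Against the single mutants, Sox8 differed by -2.30 ± 0.46 from Six3KO (adjusted p = 0.0652) and by -2.66 ± 0.49 from Six6KO (adjusted p = 0.0752), short of the threshold in both. The DKO libraries are shared by these 3 comparisons. The departure from additivity (DKO less both single mutants plus WT) was -2.43 ± 0.65 (unadjusted p = 0.00408, adjusted p = 0.336).

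Mesenchyme markers were low in DKO together with Sox8 (282 to 387 CPM), and no library of another group was as low. The next lowest sums were 581 CPM in WT library rh023, which held 16.1 CPM of Sox8, and 734 CPM in Six3KO library rh012, which held 10.8 CPM. With the mesenchyme score as a covariate, the Sox8 difference was -2.78 ± 0.54 (adjusted p = 0.0454). The score was lower in each DKO library than in any other library, so this fit cannot cleanly separate mesenchyme content from the DKO group. Mesenchyme was not the only list set apart in DKO. Blood vessel sums were 123 to 126 CPM in DKO and 188 to 398 CPM elsewhere, though the vessel scores overlapped. Scores of photoreceptor precursor markers and of amacrine and horizontal markers were also lower in each DKO library than in any other library. The sums of these neuron markers overlapped between DKO and the other groups. The part of mesenchyme content in the Sox8 difference was not tested otherwise, and that of these other lists was not tested.

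The Sox8 count may be affected by a noncoding neighbour. Exons of 2810468N07Rik, an antisense gene on the plus strand, overlap 329 exon bases of Sox8, and the sources used here do not say whether counting used strand. This neighbour was picked with its values in view. It stood at 2.27 to 3.58 CPM in WT and 0.574 to 0.911 CPM in DKO (log2 fold change -1.92 ± 0.47, adjusted p = 0.0966). Sox8 and Sox5 are shown as members whose DKO libraries lay apart from all others, 1 in each direction. The 250 bases before their starts in RefSeq (GRCm38.p6) were searched for 3 motifs on both strands. These were TAAT (the core of many homeodomain sites), TGATAC (a core bound by Six-class homeodomains) and ACAAT (a Sox core). Of 32851 promoters, 54.9%, 4.64% and 27.7% held a match of the 3 motifs in the same window. The Sox8 window (chr17:25570687-25570936, minus strand) held 0 matches of the 3 motifs. The Sox5 window (chr6:143947107-143947356, minus strand) precedes an internal start, far downstream of the gene's 5′ end at 144781977. It held 1 match of ACAAT, in capitals, and 0 of the others.
Sox8: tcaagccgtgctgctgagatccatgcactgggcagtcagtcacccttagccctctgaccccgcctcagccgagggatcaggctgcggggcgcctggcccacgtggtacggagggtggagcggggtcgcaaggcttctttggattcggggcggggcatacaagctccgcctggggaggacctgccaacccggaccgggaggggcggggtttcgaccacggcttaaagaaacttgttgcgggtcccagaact
Sox5: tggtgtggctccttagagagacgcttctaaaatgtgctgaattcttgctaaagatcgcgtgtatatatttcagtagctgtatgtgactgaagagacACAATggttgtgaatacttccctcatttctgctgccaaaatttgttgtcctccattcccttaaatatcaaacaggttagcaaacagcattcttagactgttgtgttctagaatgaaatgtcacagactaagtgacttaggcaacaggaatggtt

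The SoxB1 genes Sox3 and Sox1 both had higher mean levels in DKO than in WT, with very different spread. Sox3, an X-linked factor of neural progenitors and of the developing hypothalamus and pituitary (chromosome X, 60891366 to 60893430, minus strand), stood at 10.6, 11.3 and 12.5 CPM in WT. Its level was 11.7, 13.2 and 7.06 CPM in Six3KO and 18.4 and 11.7 CPM in Six6KO. In DKO it was 27.3, 31.6 and 21.9 CPM. Every DKO library lay above the highest of the others, Six6KO library rh007.

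Sox3 stood 2.35 fold above WT in DKO (log2 fold change 1.23 ± 0.26, 95% interval 0.65 to 1.81), just short of the threshold (adjusted p = 0.0554). It passed in 7 of 19 alternatives, among them DESeq2 (1.24 ± 0.28, adjusted p = 0.000668) and DKO and WT alone (adjusted p = 0.0313). The fit without the 3 lens-rich libraries (1.24) is also among them. It keeps rh006 and rh007 as lone single mutant libraries, so its spread comes from the same DKO and WT libraries. The estimate ran from 0.99 to 1.36. In 3 fits without 1 library it passed as well, with adjusted p = 0.0222 without Six3KO library rh026 and 0.0487 and 0.0478 without Six6KO libraries rh007 and rh020. DKO differed from Six3KO by 1.33 ± 0.26 (adjusted p = 0.0582) and from Six6KO by 0.84 ± 0.29 (adjusted p = 0.239). The single mutants differed from WT by -0.10 ± 0.26 (Six3KO) and 0.39 ± 0.29 (Six6KO). The departure from additivity was 0.94 ± 0.39 (unadjusted p = 0.0370, adjusted p = 0.463).

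Sox1 (chromosome 8, 12395295 to 12400126, plus strand), which marks early neural tissue and, with lens partners, drives crystallin genes in lens fiber cells, varied widely within groups. It stood at 2.81, 7.63 and 8.79 CPM in WT. In Six3KO it stood at 4.20, 53.9 and 47.0 CPM, with the higher values in rh012 and rh026, the libraries richest in lens genes. Six6KO library rh020, also rich in lens genes, held 14.4 CPM and rh007 6.85 CPM. The DKO libraries held 11.3, 19.5 and 13.1 CPM, above every WT library, with lens sums of 34.8 to 240 CPM against 56.6 to 1598 CPM in WT.

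Neither Sox1 difference from WT passed. It was 1.21 ± 0.80 in DKO (adjusted p = 0.623) and 2.46 ± 0.81 in Six3KO (unadjusted p = 0.0139, adjusted p = 1.000). Without the 3 lens-rich libraries the Six3KO value turned to -0.60 and rested on rh006 alone, and the DKO value was 1.21. DKO against Six3KO likewise turned from -1.26 ± 0.77 to 1.81. With the lens score as a covariate, Sox1 in DKO against WT was 1.94 (adjusted p = 0.132).

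**Figure D2:**
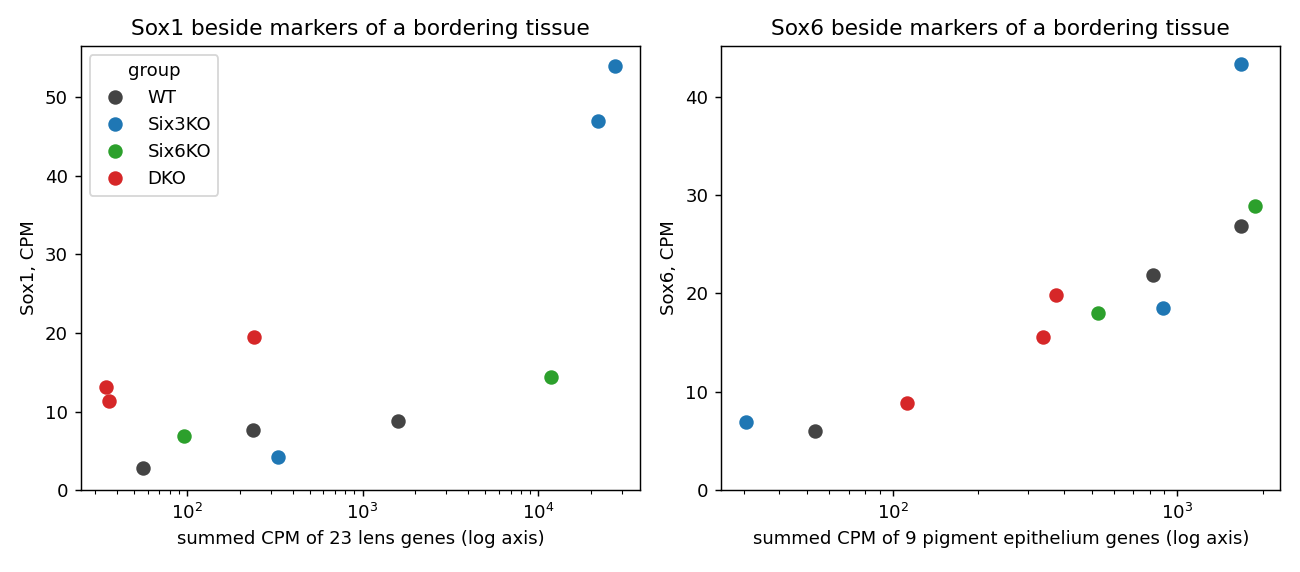
CPM (vertical axes) of Sox1 beside the summed CPM of 23 lens genes (left, log horizontal axis) and of Sox6 beside that of 9 pigment epithelium genes (right, log horizontal axis), 1 point per library, coloured by group. The highest Sox1 values (53.9 and 47.0 CPM) belong to the libraries with the most lens reads, while the DKO libraries reach 11.3 to 19.5 CPM with 240 CPM of lens genes or less; the highest Sox6 values (28.9 and 43.3 CPM) belong to libraries with 1878 and 1677 CPM of pigment epithelium genes.

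The estimates of the 3 SoxD genes in DKO against WT differed in direction, and none of the 3 was called. Sox5 (chromosome 6, 143828425 to 144781977, minus strand), which acts in the timing of neuron types in the mouse cortex and in cartilage, was higher than in WT by estimate. It stood at 10.2, 6.01 and 7.26 CPM in WT, 8.88, 5.28 and 8.17 CPM in Six3KO, and 7.08 and 9.20 CPM in Six6KO. In DKO it stood at 23.4, 21.0 and 10.7 CPM. DKO library rh021 thus lay just above the highest WT library, and the other DKO libraries far above all.

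The Sox5 difference from WT in DKO was 1.22 ± 0.34 (2.33 fold, adjusted p = 0.129). It passed in DESeq2 (1.22 ± 0.37, adjusted p = 0.0229) and without DKO library rh021 (1.49, adjusted p = 0.0485), and its estimate ran from 1.01 to 1.71 over 19 alternatives. DKO differed by 1.30 ± 0.33 from Six3KO (adjusted p = 0.128) and by 1.17 ± 0.38 from Six6KO (adjusted p = 0.220). The departure from additivity was 1.25 ± 0.51 (unadjusted p = 0.0343, adjusted p = 0.454). The antisense gene Sox5os1 overlaps 1330 exon bases of Sox5 and was not analysed here. How reads in this overlap were counted is not known.

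Sox13 (chromosome 1, 133382303 to 133424377, minus strand), a SoxD factor best known in lymphocytes and in lineage choice outside the eye, was lower than WT in DKO by estimate. It stood at 17.6, 24.5 and 37.2 CPM in WT, 23.1, 22.7 and 25.9 CPM in Six3KO, and 24.6 and 23.1 CPM in Six6KO. The DKO libraries held 16.0, 13.5001 and 17.0 CPM, below all others by a narrow margin, since WT library rh016 held 17.6 CPM. The difference from WT was -0.77 ± 0.23 (adjusted p = 0.172) and did not pass in any of 19 alternatives, where it ran from -0.99 to -0.44. WT library rh024 set much of its size, with -0.44 (adjusted p = 0.370) without it.

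Sox6 (chromosome 7, 115470872 to 116038796, minus strand), a SoxD factor of neurons, muscle, red blood cells and cartilage, spread as widely within groups as between them. It stood at 26.9, 6.01 and 21.9 CPM in WT and 18.5, 6.91 and 43.3 CPM in Six3KO. It stood at 18.0 and 28.9 CPM in Six6KO and at 15.6, 19.9 and 8.88 CPM in DKO. The lowest values, in WT rh023 and Six3KO rh012, went with the lowest sums of 9 pigment epithelium genes (53.4 and 30.6 CPM) and with low sums of 11 blood vessel genes (192 and 188 CPM, against 273 to 398 CPM in the other WT and single mutant libraries). Libraries rh023 and rh012 also had the lowest mesenchyme sums outside DKO (581 and 734 CPM). Their surface ectoderm sums were the lowest of all (55.9 and 58.6 CPM). In DKO the vessel sums were lower still (123 to 126 CPM), with Sox6 at up to 19.9 CPM. The pigment epithelium sums of DKO libraries rh010, rh011 and rh021 were 338, 374 and 112 CPM, in the same order as their Sox6 levels. The difference of DKO from WT was -0.31 ± 0.68 (adjusted p = 0.938), and its sign turned with the mesenchyme score as a covariate (1.93, adjusted p = 0.0774) and without WT library rh016 (0.08). The part of these bordering tissues in the Sox1 and Sox6 values was not tested beyond these fits. The mesenchyme score was lowest in the DKO libraries, which limits the fit with that covariate.

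The SoxC genes were abundant, with narrow intervals for Sox4 and Sox12 and a wider one for Sox11. Sox4 (chromosome 13, 28948919 to 28953713, minus strand) stood at 223, 247 and 221 CPM in WT and at 262, 268 and 272 CPM in DKO, so that the DKO libraries lay above WT by a small margin. Its difference was 0.21 ± 0.17 (adjusted p = 0.697), with a 95% interval of 0.897 to 1.501 fold. Library size alone gave 0.22 and the mesenchyme covariate 0.01. Exons of Gm26735, an antisense gene not analysed here, overlap 2616 exon bases of Sox4.

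Sox12 (chromosome 2, 152393611 to 152398063, minus strand) stood at 114, 127 and 141 CPM in WT and at 124, 124 and 131 CPM in DKO, within the WT range. Its difference was -0.01 ± 0.14, with an interval of 0.797 to 1.24 fold. Sox11 (chromosome 12, 27334264 to 27342574, minus strand) stood at 1131, 1666 and 1319 CPM in WT and at 953, 1023 and 1251 CPM in DKO, with overlap. Its difference was -0.35 ± 0.31 (adjusted p = 0.752), and its interval of 0.482 to 1.28 fold is wider than those of the other SoxC genes. In the single mutants all 3 genes had intervals that included no change. Sox11 was lowest in Six6KO rh020 (733 CPM) and Six3KO rh026 (791 CPM). These libraries also had the lowest sums of retinal progenitor genes (1976 and 1578 CPM), which include Six3 and Six6.

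**Figure D3:**
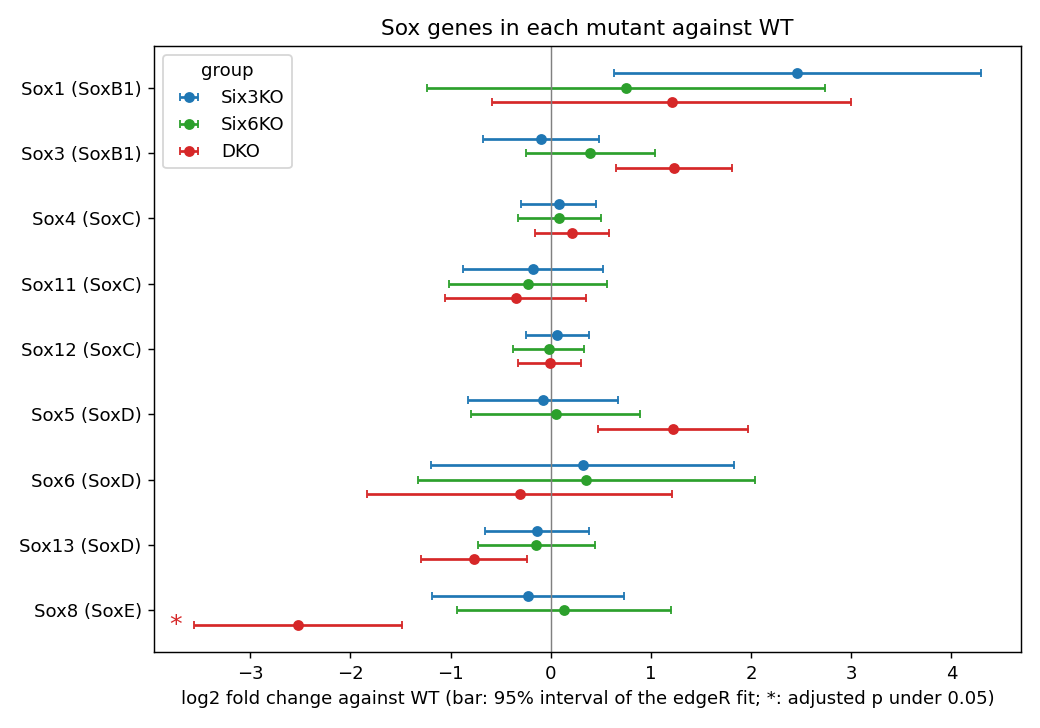
Log2 fold change against WT (horizontal axis; bar, 95% interval of the edgeR fit) of each Sox gene (vertical axis) in Six3KO, Six6KO and DKO; an asterisk marks an adjusted p under 0.05. The asterisk stands at Sox8 in DKO (-2.53), Sox3 and Sox5 in DKO lie at 1.23 and 1.22, and the widest intervals are those of Sox1 and Sox6.

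In the other comparisons none of the 9 members was called by edgeR. In Six3KO against WT 0.00752% of all genes were called (1 of 13292), and 1 member, Sox1, had an unadjusted p under 0.05, against 3.50% of all genes. In Six6KO against WT 0% were called (0 of 13292), and 0 members had an unadjusted p under 0.05, against 3.90% of all genes. DESeq2 called 0 members in both, and 19 and 2 genes in all. In DKO against Six3KO 0.587% of all genes were called and in DKO against Six6KO 0.233%, and the same 4 members (Sox3, Sox5, Sox8, Sox13) had an unadjusted p under 0.05 in each, against 13.2% and 14.8% of all genes. DESeq2 called Sox3, Sox5 and Sox8 among 774 genes in the first and Sox8 among 671 genes in the second. For the departure from additivity 0% of all genes were called, and Sox3, Sox5 and Sox8 had an unadjusted p under 0.05, against 9.99% of all genes. DESeq2 called Sox8 there (-2.45, adjusted p = 0.0248), among 241 genes in all.

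Within the DKO group, the library with the most remaining Six3 and Six6 lay nearest to the WT mean for some members and farthest from it for others. Library rh021 held 98.2 CPM of Six3 and 99.8 CPM of Six6, against 57.3 and 56.0 CPM in rh010 and 56.2 and 52.8 CPM in rh011. It also held the least Sox3 (21.9 CPM), the least Sox5 (10.7 CPM), the most Sox8 (3.65 CPM) and the most Sox13 (17.0 CPM) of the 3. For those genes and for Sox11 (1251 CPM) it lay nearest to the WT mean. How often this was so over all genes was not counted. For Sox4 (272 CPM), Sox6 (8.88 CPM) and, by a small margin, Sox12 (131 CPM) it lay farthest from the WT mean, and for Sox1 between the other two. Its retinal progenitor genes, which include Six3 and Six6, summed to 2799 CPM, against 2289 and 2234 CPM in rh010 and rh011. The part of the remaining Six3 and Six6, or of progenitor content, in these levels was not tested. Without rh021 the differences from WT were -3.14 for Sox8 (adjusted p = 0.0162), 1.36 for Sox3 (adjusted p = 0.0587) and 1.49 for Sox5.

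**Figure D4:**
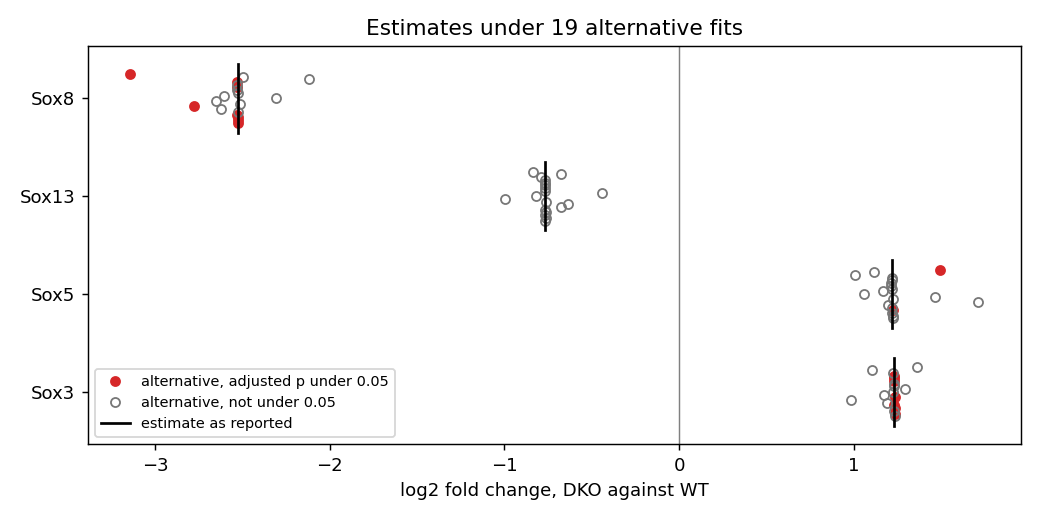
Log2 fold change in DKO against WT (horizontal axis) of Sox3, Sox5, Sox13 and Sox8 under 19 alternative fits (points; filled where the adjusted p was under 0.05), with the reported estimate as a black line. All estimates keep their sign, while the filled points are 7 of 19 for Sox3, 2 of 19 for Sox5, 0 of 19 for Sox13 and 8 of 19 for Sox8.

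The genes whose log2 CPM followed these members most closely over the 11 libraries were taken by a fixed rule from 11227 genes. Nearest to Sox8 were Etv4, an ETS factor of FGF signalling (Pearson r = 0.98), the adaptor gene Shb (0.97) and the zinc finger gene Klf6 (0.97). Their mean levels were 9.78, 27.3 and 56.7 CPM in WT and 4.00, 10.1 and 33.0 CPM in DKO. Nearest to Sox3 were Rfx4, a winged-helix factor (r = 0.96), with 0.733 CPM in WT and 18.4 CPM in DKO, Mad2l2 (0.94) and Lman1 (0.93). Nearest to Sox5 were Atrnl1, Nedd4 and Mtmr10 (0.94 each). These are descriptions over libraries that share the group differences.

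Partner and target lists showed few calls by edgeR in DKO against WT. Their counts stand beside 1.29% of all genes called by edgeR, 1728 of 13292 genes with an unadjusted p under 0.05 and 773 called by DESeq2. Of 9 other Sox genes, 5 were tested (Sox2, Sox7, Sox9, Sox10, Sox18) and 0 passed by edgeR (0 at an unadjusted p under 0.05, 0 by DESeq2). The SoxE genes Sox9 and Sox10 stood at different levels. Sox9 stood at 41.2 to 83.9 CPM in WT and 49.2 to 53.2 CPM in DKO (-0.33 ± 0.25, adjusted p = 0.691). Sox10, a neural crest factor, stood at 0 to 5.08 CPM in WT and 0 to 0.497 CPM in DKO (adjusted p = 0.563). Sox18, an endothelial factor, stood at 0.231 to 5.31 CPM in WT and 0.238 to 0.738 CPM in DKO (-2.49 ± 1.24, adjusted p = 0.457), beside sums of 11 blood vessel genes of 192 to 395 CPM and 123 to 126 CPM.

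Of 16 genes of the SoxB1 progenitor network, 0 passed by edgeR, 7 had an unadjusted p under 0.05 and DESeq2 called 1 higher and 2 lower (median -0.22). Ccnd1, a cyclin of progenitor division, stood at -2.27 ± 0.53 (adjusted p = 0.0840), Pou3f2, a POU partner of SoxB1 proteins, at 1.89 ± 0.52 (adjusted p = 0.129) and the Notch effector Hes1 at -0.53 ± 0.15 (adjusted p = 0.138). Pou3f2 lay at 12.5 to 30.8 CPM in WT and 61.4 to 80.7 CPM in DKO, with no overlap.

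Of 22 genes of SoxC partners and neuron differentiation, 1 rose, 0 fell and 21 did not pass by edgeR (median -0.26). In this list 2 genes had an unadjusted p under 0.05, and DESeq2 called 1 higher and 1 lower. The riser was Plxna2, a semaphorin receptor, from 64.8 ± 4.85 to 153 ± 36.6 CPM (1.24 ± 0.25, adjusted p = 0.0476 from edgeR, n = 3 in each group). Isl1, a LIM factor of ganglion cells that acts downstream of SoxC genes in the mouse retina, stood at -1.34 ± 0.44 (adjusted p = 0.209) and the neurofilament gene Nefm at -0.90 ± 0.41 (adjusted p = 0.407).

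Of 13 cartilage and matrix targets of SoxD and SoxE proteins, 9 were tested and 0 passed by edgeR, with 4 at an unadjusted p under 0.05. DESeq2 called 2 higher and 1 lower (median -0.40). The collagen genes Col9a1 (0.88 ± 0.25, adjusted p = 0.134) and Col2a1 (0.96 ± 0.31, adjusted p = 0.207) stood above WT by estimate. Col2a1 lay at 89.5 to 229 CPM in WT and 257 to 325 CPM in DKO. Matn4 stood at 0.231 to 27.3 CPM in WT and 0 to 0.497 CPM in DKO (adjusted p = 0.141).

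Of 15 crest and glial genes tied to SoxE proteins, 13 were tested and 0 passed by edgeR, with 5 at an unadjusted p under 0.05 and 4 lower by DESeq2 (median -1.52). The neurotrophin receptor gene Ngfr stood at 40.6 to 60.1 CPM in WT and 15.1 to 21.0 CPM in DKO (-1.38 ± 0.28, adjusted p = 0.0518). The AP-2 gene Tfap2a stood at -3.18 ± 0.70 (adjusted p = 0.0696), and the glutamate transporter gene Slc1a3 at -1.52 ± 0.35 (adjusted p = 0.0803). Tfap2a is also 1 of the amacrine and horizontal markers of the retina. In DKO against WT, 7 of 9 tested genes of that list had estimates below 0 (median -2.11), and edgeR called 1 higher and 0 lower. The part of crest-derived tissue, whose mesenchyme markers were low in DKO, or of retinal cell types was not tested for this list.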

How the data were processed

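Raw read counts per gene were used as deposited, 1 column for each of 11 libraries. Per the submitters' processing notes, the tools were Trim Galore 0.3.7, TopHat2 2.0.13, HTSeq 0.6.1, Cufflinks 2.2.1 and Cuffdiff with mm10. The sources used here do not give the annotation, the strand setting or any filter on rows.

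Counts were scaled by TMM and fitted in edgeR 4.0.16 (R 4.3.3, limma 3.58.1) with the quasi-likelihood test, as 1 fit with a mean for each of 4 groups. Genes were kept by filterByExpr with a minimum count of 10, and p-values were adjusted by Benjamini-Hochberg over all 13292 genes. The 6 comparisons set every mutant against WT and DKO against Six3KO and Six6KO, and tested additivity (DKO less both single mutants plus WT). DESeq2 1.42.0, other scalings, no filter, marker covariates and libraries left out were the alternatives. Nothing ties a column to a sample beyond its group, and p-values measure the spread between libraries.

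The members and lists were chosen with earlier results of these data known. Named genes were the members, Sox2 and Sox9, up to 3 genes per list by smallest p (DKO against WT), and the 3 genes most correlated in log2 CPM with Sox8, Sox3 and Sox5 among those with a mean of at least 5 CPM. Positions came from GENCODE vM21 and promoters from RefSeq, where 8 of 9 members matched and Sox3 did not.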

Additional observations from a re-analysis of the deposited data

How the results depend on the processing

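Over 19 alternatives (18 for the departure), the members called in DKO against WT numbered 2 with library size alone, 3 with DESeq2, 0 with the lens covariate and 0 to 2 when 1 library was left out. With DKO and WT alone the number stayed at 1, but Sox3 passed and Sox8 did not (adjusted p = 0.0695). The fit without the lens-rich libraries takes its spread from those same libraries and is not a separate check. In DKO against Six3KO they numbered 1 with library size alone, 3 with DESeq2 and 0 to 1 without 1 library. In DKO against Six6KO they numbered 1 with DESeq2, 1 with the compared groups alone and 0 to 1 without 1 library, and DESeq2 called 1 for the departure. Genes called in all numbered 773 with DESeq2, 107 with the lens covariate and 20 to 279 without 1 library in DKO against WT. They numbered 19 with DESeq2 and 1 to 2 without 1 library in Six3KO against WT, and 2 with DESeq2, 10 with the compared groups alone and 0 to 1 without 1 library in Six6KO against WT. In DKO against Six3KO they numbered 774 with DESeq2, 0 with the lens covariate, 48 with the mesenchyme covariate, 0 without the lens-rich libraries and 16 to 93 without 1 library. In DKO against Six6KO they numbered 671 with DESeq2, 682 with the compared groups alone, 2 with the lens covariate, 1 with the mesenchyme covariate, 1 without the lens-rich libraries and 1 to 77 without 1 library. For the departure they numbered 241 with DESeq2 and 0 to 3 without 1 library. The cause was not tested.

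Estimates that changed sign, none of them called, were Sox6 in DKO against WT (1.93 with the mesenchyme covariate) and, in Six3KO against WT, Sox1 (-0.60), Sox3 (0.036) and Sox5 (0.17) without the lens-rich libraries and Sox5 (0.0095) with the lens covariate. Sox5 in Six6KO against WT turned to -0.080 with the mesenchyme covariate and -0.16 without the lens-rich libraries. Sox1 in DKO against Six3KO turned to 1.45 with the lens covariate and 1.81 without the lens-rich libraries, and its departure to 1.31 and 1.70. Without 1 library, Sox6 ran from -0.73 to 0.085 and Sox12 from -0.084 to 0.065 in DKO against WT. In Six3KO against WT, Sox3 ran from -0.27 to 0.11, Sox5 from -0.23 to 0.17, Sox8 from -0.35 to 0.0069 and Sox13 from -0.37 to 0.20. In Six6KO against WT, Sox5 ran from -0.17 to 0.30, Sox8 from -0.21 to 0.39 and Sox13 from -0.37 to 0.17.

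No paired analysis was possible because the columns carry library names and no replicate numbers. A lone library left in a group is assumed to vary like the other groups. Sox8 rests on 9 to 46 reads in the DKO libraries, which limits its precision there.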
